A study of Arabidopsis thaliana with 2 samples.

Results

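Cuticular wax and very-long-chain lipid synthesis was followed through 9 Arabidopsis thaliana genes, taken by gene identifier: KCS1, KCS6, CER1, CER2, CER3, CER4, WSD1, KCR1 and LACS2. Of these 9, 6 had values among the 11666 genes of the deposited expression table and are described here. CER3, WSD1 and LACS2 were not analysed here, apart from the bases before their starts. RNA-seq compared whole wild-type seedlings with seedlings of ago1-36, a line mutated in ARGONAUTE1 (AGO1), whose product binds microRNAs and acts with them on matching transcripts. Both genotypes were grown for 12 days at 23 °C on Murashige and Skoog plates with 3% sucrose, in long days of 16 h light and 8 h darkness. Each genotype had 1 library of total RNA, so differences could not be checked against replicates, and they describe these 2 libraries alone. No p-value is given for that reason.

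The plant cuticle is a lipid layer of cutin and wax laid down by epidermal cells over the aerial surface, where it limits water loss. Wax starts from fatty acids that the endoplasmic reticulum elongase lengthens to very long chains, in a cycle of condensation (the KCS enzymes), reduction (KCR1), dehydration (PAS2) and a second reduction (CER10). The products then enter an alkane-forming branch, in which CER1 works with CER3, or an alcohol-forming branch, in which CER4 makes primary alcohols and WSD1 builds them into wax esters. LACS2 activates fatty acids for cutin.

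The mutated gene itself, AGO1 (AT1G48410), measured 48.6 RPKM in wild-type against 5.59 RPKM in ago1-36, which was 8.70-fold lower in the library labelled as the mutant. RPKM counts reads relative to gene length in kilobases and to library size, in units of 1000000 reads. The libraries held about 13670000 (wild-type) and 13590000 (ago1-36) reads. Of the listed genes, 11373 reached 1 RPKM in at least 1 library and were kept. Log2 ratios compare ago1-36 with wild-type after 1 was added to each RPKM, which understates the differences of low genes, and folds are plain RPKM ratios. On that scale 19.6% of the kept genes were higher in ago1-36 by 2-fold or more and 8.38% were lower by as much, a split of 70.0% higher among the genes past 2-fold. The same split was 55.7% higher when taken from the log2 column of the authors' deposited table. The median log2 ratio of the kept genes was -0.04, and -0.23 in that column of the authors' deposited table. Kept genes with slightly higher values in ago1-36 were scarce in the table, with 38 between 0.1 and 0.3 on the log2 scale against 1417 between -0.4 and -0.2, so shares describe the listed genes alone.

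The bases before 4 members are shown because these genes span the range of differences described below: CER1 and KCS1 were higher in ago1-36, KCS6 was little different and CER4 was lower. Each is the 250 bases before the annotated gene start on the gene's own strand, read from RefSeq's TAIR10.1 assembly. Capitals mark GTAC, the core bound by SPL transcription factors, and TAACTA read on either strand, a MYB motif. The windows lie at chr1:418166-418415 for CER1 (forward strand), chr1:59216-59465 for KCS1 (reverse strand), chr1:25715025-25715274 for KCS6 (reverse strand) and chr4:16207957-16208206 for CER4 (reverse strand).
CER1: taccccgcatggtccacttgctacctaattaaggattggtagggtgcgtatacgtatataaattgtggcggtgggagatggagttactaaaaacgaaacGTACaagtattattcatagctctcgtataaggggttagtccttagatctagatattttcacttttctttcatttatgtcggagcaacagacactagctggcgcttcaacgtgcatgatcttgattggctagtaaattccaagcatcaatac
KCS1: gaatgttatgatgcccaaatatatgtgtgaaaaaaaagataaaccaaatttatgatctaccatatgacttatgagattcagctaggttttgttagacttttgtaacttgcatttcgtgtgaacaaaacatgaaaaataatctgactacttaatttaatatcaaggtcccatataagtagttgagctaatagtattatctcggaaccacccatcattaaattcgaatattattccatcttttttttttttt
KCS6: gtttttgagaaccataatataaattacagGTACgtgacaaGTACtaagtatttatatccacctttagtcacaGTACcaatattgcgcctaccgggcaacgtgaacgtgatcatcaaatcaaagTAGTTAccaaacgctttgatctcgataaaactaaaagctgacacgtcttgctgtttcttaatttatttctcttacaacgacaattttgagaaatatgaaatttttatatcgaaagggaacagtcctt
CER4: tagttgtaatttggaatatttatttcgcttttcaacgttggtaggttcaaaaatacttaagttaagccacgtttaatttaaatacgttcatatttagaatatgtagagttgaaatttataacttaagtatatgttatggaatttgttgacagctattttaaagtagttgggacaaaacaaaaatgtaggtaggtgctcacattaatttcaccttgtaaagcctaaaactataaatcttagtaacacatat

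The CER1 window held 1 GTAC, spanning 151 to 148 bases before the start, and no TAACTA. The KCS6 window held 3 GTAC and 1 TAACTA, the latter on the opposite strand and ending 122 bases before the start. The KCS1 and CER4 windows held neither. Among all 9 genes, GTAC was present in 4 windows (KCS6, CER1, CER2 and WSD1) and TAACTA in 2 (KCS6 and CER2). Of 37897 nuclear gene windows of the same length, 34.8% held GTAC and 19.7% held TAACTA. Among the 6 members with values, 3 held GTAC and 2 held TAACTA, against 35.5% and 19.5% of the windows of 11262 kept genes. None of the 9 windows held the second MYB motif TAACTG (8.34% of all windows), the L1 box TAAATGCA (1.55%) or the GCC box GCCGCC (1.95%), all searched on both strands. GTAC reads the same on both strands, and no match overlapped another. The CER2 window overlaps AT4G24500 and the KCR1 window overlaps AT1G67720, so parts of these belong to neighbouring genes. A match describes letters and not a bound site.

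**Figure D1:**
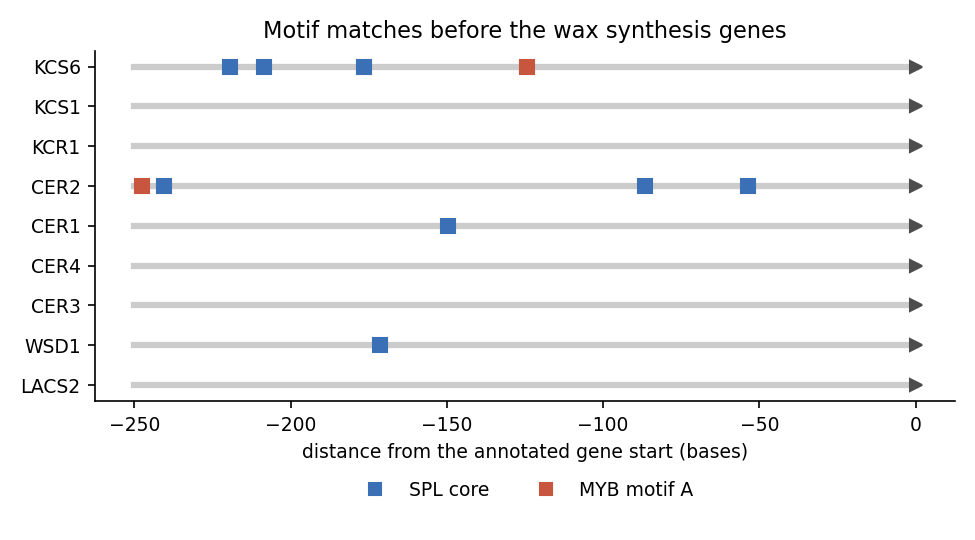
Positions of GTAC (SPL core, blue) and TAACTA on either strand (MYB motif A, red) in the 250 bases before each of the 9 genes, with the gene start at 0 on the horizontal axis in bases. Matches appear before KCS6, CER2, CER1 and WSD1, and the other 5 lines are empty.

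Within elongation, the condensing enzymes differed between the genotypes in unlike ways. KCS6 (AT1G68530, also CER6), the main condensing enzyme for wax precursors in the shoot epidermis, stood at 110 RPKM in wild-type and 101 in ago1-36, from about 2733 and 2479 reads. Its RPKM ratio was 0.912, with a 95% counting interval of 0.864 to 0.964. These intervals are exact Clopper-Pearson intervals on reads recovered from the table and cover counting error alone, without variation between plants or libraries. KCS1 (AT1G01120), a condensing enzyme with a broader part in wax synthesis, was read at 30.3 RPKM in wild-type and at 53.3 in ago1-36. It was 1.76-fold higher in ago1-36 (95% counting interval 1.61 to 1.92), which is short of 2-fold. The gap between KCS6 and KCS1 narrowed: KCS1 stood at 0.274 of the KCS6 RPKM in wild-type and at 0.529 of it in ago1-36.

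KCR1 (AT1G67730), the ketoacyl reductase of the elongase, was the member with the ratio nearest to 0. It measured 51.2 RPKM in wild-type against 49.8 RPKM in ago1-36, a log2 ratio of -0.04 that equals the median of all kept genes at this rounding. The 95% counting interval of its RPKM ratio, 0.889 to 1.06, spans 1. CER2 (AT4G24510), an acyltransferase-like protein that KCS6 needs to reach the longest chain lengths, stood at 81.5 RPKM in wild-type and 114 in ago1-36. It was 1.40-fold higher (95% counting interval 1.31 to 1.49). The CER2 value is uncertain, because the gene shares 96 exon bases with AT4G24520 on the opposite strand, and the use of strand in counting is not given in the sources used here. AT4G24520 had 76.2 and 143 RPKM, so it too was higher in ago1-36. A further 316 exon bases of CER2 lie opposite AT4G07275, which was not analysed here.

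The branch enzymes stood at the ends of the range. CER1 (AT1G02205), which forms alkanes, the major wax class of Arabidopsis stems and leaves, was read at 65.1 RPKM in wild-type and at 135 in ago1-36, from about 2158 and 4447 reads. It was 2.07-fold higher (95% counting interval 1.97 to 2.18), with a log2 ratio of 1.04, and it was the single member past 2-fold in the higher direction. The lower limit of that interval falls under 2-fold. In the log2 column of the authors' deposited table, CER1 stood at 0.87, short of 2-fold, and its GFOLD score, a fold change made conservative for low counts, was 0.78. CER4 (AT4G33790), the alcohol-forming fatty acyl reductase, measured 2.70 RPKM in wild-type against 0.302 RPKM in ago1-36, from 63 and 7 reads. In ago1-36 it was therefore 8.95-fold lower (95% counting interval 4.10 to 23.2), the single member past 2-fold in the lower direction, with a log2 ratio of -1.51. Its low read number leaves the size of that difference the least certain of the 6.

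Of the 6 members, 3 had higher and 3 had lower RPKM in ago1-36, and 1 passed 2-fold in each direction. That is 1 of 6 higher against 19.6% of all kept genes, and 1 of 6 lower against 8.38%, so with so few members neither count sets the group apart from the background. The median log2 ratio of the members was 0.22, against -0.04 for all kept genes. Among the 11373 kept genes, 2123 had a higher ratio than CER1 and 2980 had a higher ratio than KCS1. At the other end, 360 kept genes had a lower ratio than CER4.

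**Figure D2:**
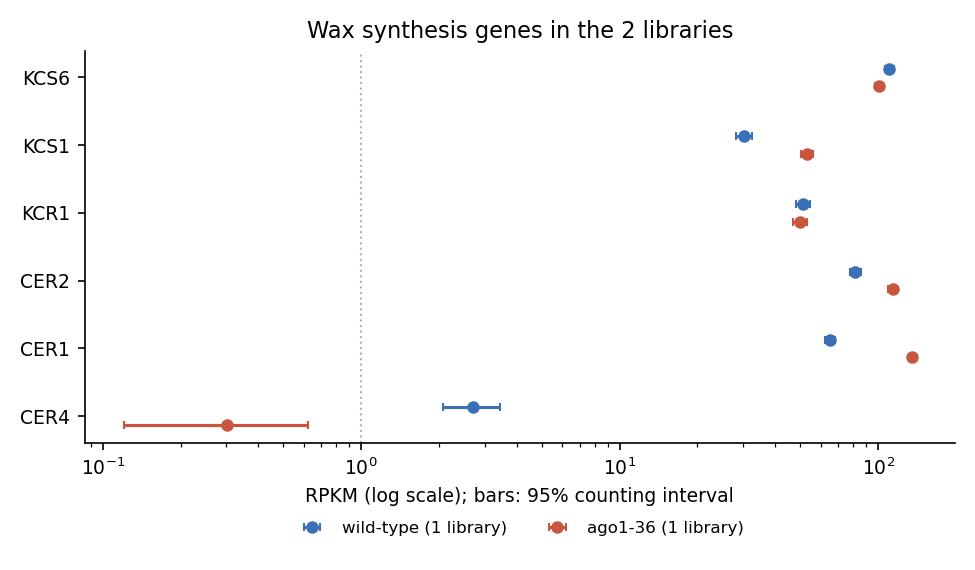
RPKM of the 6 wax synthesis genes on a log scale in the wild-type (blue) and ago1-36 (red) libraries, 1 point per library, with bars for exact Poisson 95% counting intervals and a dotted line at the filter of 1 RPKM. CER1, KCS1 and CER2 lie to the right in ago1-36, KCS6 and KCR1 nearly coincide, and CER4 lies far to the left.

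**Figure D3:**
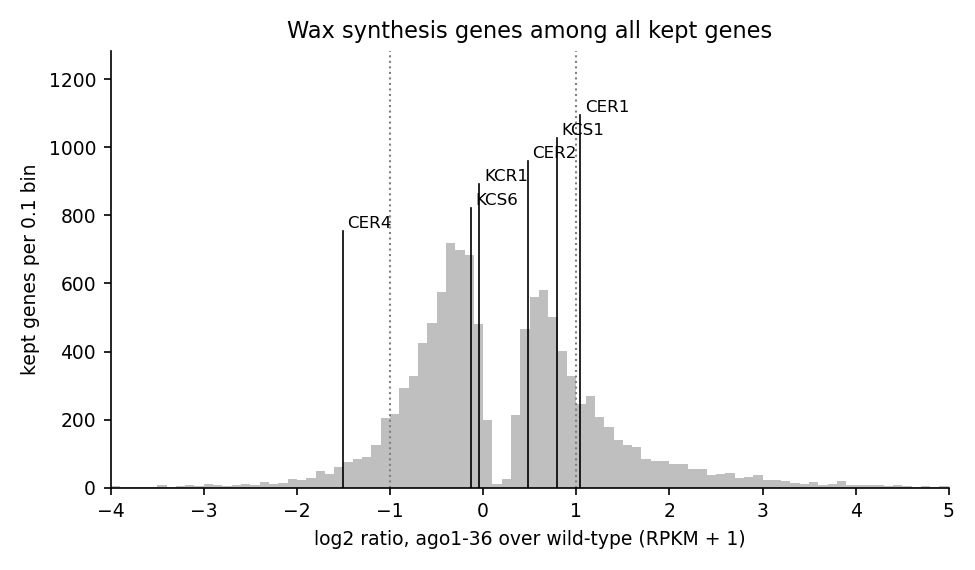
Number of kept genes (vertical axis) in bins of 0.1 of the log2 ratio of ago1-36 over wild-type on the RPKM plus 1 scale (horizontal axis), with a black line at each member and dotted lines at 2-fold. CER1 at 1.04 lies just past the upper line and CER4 at -1.51 beyond the lower one, and few genes lie just above 0.

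Because RPKM is per length, levels can be ordered within a library, but the order depends on the gene length used. Lengths recovered from RPKM and reads were 1811 bases for KCS6, 2423 for CER1 and 1554 for CER2. Their exon lengths after merging transcripts were 2611, 3593 and 1627. Counting intervals do not cover this difference, and the order with exon lengths was not tested. Shares and ratios between members rest on the recovered lengths. In wild-type the order of RPKM was KCS6, CER2, CER1, KCR1, KCS1 and CER4, and none of the 5 pairs of neighbours had overlapping counting intervals. In ago1-36 it was CER1, CER2, KCS6, KCS1, KCR1 and CER4, where KCS1 and KCR1 overlapped and the other 4 pairs of neighbours did not. On the deposited RPKM values, CER1 and KCS6 thus changed places in the order. The summed RPKM of the 6 members was 341 in wild-type and 453 in ago1-36. CER1 made up 19.1% of that sum in wild-type and 29.8% in ago1-36, while KCS6 made up 32.4% and 22.2%. The RPKM of CER1 was 24.1 times that of CER4 in wild-type and 447 times in ago1-36.

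The 6 genes share little in structure that the choice did not fix. KCS1, KCS6, CER1 and KCR1 lie on chromosome 1 and CER2 and CER4 on chromosome 4, with no pair of them adjacent. In the TAIR10.1 annotation, KCS1 spans 57164 to 59215, KCS6 25712414 to 25715024, CER1 418416 to 422579 and KCR1 25391338 to 25393889. CER2 spans 12660687 to 12662656 and CER4 16204096 to 16207956. CER4 has 10 exons after merging its transcripts and CER1 has 7, whereas KCS1 has 1. None of the 50-base windows of the exons of KCS1, KCS6, CER1, CER4 or KCR1 occurs in the exons of another annotated gene. Of the 1578 windows of CER2, 314 do, and the gene that holds the most of them is AT4G07275 on the opposite strand. AT4G24520, also on the opposite strand, shares 96 exon bases with CER2.

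The rest of the elongase, listed as 24 further genes, had 13 with values and 12 kept. Of these 12, 1 was at least 2-fold higher (against 19.6% of kept genes) and 2 were at least 2-fold lower (against 8.38%), while 9 lay between, with a median log2 ratio of -0.42. The higher count was 0 under a filter of 5 RPKM. It was 2 with libraries rescaled to a sum taken without organelle genes and the top 50 genes by abundance. KCS19, a condensing enzyme of the family, stood at 14.7 RPKM in wild-type and 4.06 in ago1-36 and was 3.63-fold lower (95% counting interval 2.91 to 4.56). CER26, the leaf counterpart of CER2, had 85.2 and 31.3 RPKM and was 2.72-fold lower (95% counting interval 2.49 to 2.97), the opposite direction to CER2 itself. KCR2, a relative of KCR1, was the higher gene, from 8 reads in wild-type to 53 in ago1-36 (0.547 and 3.64 RPKM, 6.66-fold, 95% counting interval 3.15 to 16.2).

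The remaining elongase genes stayed under 2-fold on that scale. KCS10, a condensing enzyme also known as FIDDLEHEAD that keeps organs from fusing, was the most abundant of the list at 175 RPKM in wild-type against 124 RPKM in ago1-36. The dehydratase PAS2 (31.5 and 22.5 RPKM) and the enoyl reductase CER10 (29.4 and 22.4 RPKM), which complete the cycle that KCR1 belongs to, had log2 ratios of -0.47 and -0.38. KCS5, the closest relative of KCS6, had 21.7 and 19.1 RPKM. The condensing enzymes KCS3 (28.5 and 41.9 RPKM) and KCS12 (3.98 and 7.71 RPKM) had higher values in ago1-36, as KCS1 did. Condensing enzymes and ketoacyl reductases (KCR1 and KCR2) thus had values in both directions.

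Of 12 other genes of the wax-forming branches, 4 had values and 3 were kept, with 1 at least 2-fold higher (against 19.6% of all kept genes) and 0 lower (against 8.38%). Their median log2 ratio of 0.85 rests on 3 genes: it was 0.07 without the filter on low values, 0.01 with libraries rescaled to a sum of 1000000, and -0.07 with that sum taken without organelle genes and the top 50 genes by abundance. By either rescaling 1 gene was at least 2-fold lower, and in the log2 column of the authors' deposited table a different gene was, both named below. FAR5, an alcohol-forming reductase of the CER4 family that serves suberin, was read at 10.9 RPKM in wild-type and at 27.6 in ago1-36 and was 2.55-fold higher (95% counting interval 2.19 to 2.96). FAR1, another such reductase, had 12.5 and 6.41 RPKM, a log2 ratio of -0.86, and stood at -1.14 in the log2 column of the authors' deposited table. The CER4 family therefore had values in both directions. FAR5 belongs to a family of close relatives, and reads shared among them cannot be told apart here. The wax synthase relative WSD6 had 7.84 and 14.9 RPKM. CER1L1, the closest relative of CER1, stayed below the filter with 29 and 6 reads. By either rescaling it passed the filter and was the gene at least 2-fold lower.

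Among acyl-CoA synthetases other than LACS2, which activate fatty acids, 4 of 7 were kept and none passed 2-fold (median log2 ratio -0.04). Of all kept genes, 19.6% were at least 2-fold higher and 8.38% at least 2-fold lower, so 4 genes are too few to set the list apart. LACS7, a peroxisomal enzyme, measured 12.7 RPKM in wild-type against 21.6 RPKM in ago1-36, and LACS9, a plastid enzyme, had 25.3 and 16.0 RPKM. For fatty acid supply and ceramide use, 3 of 5 genes were kept and none passed 2-fold, again too few to set against those shares (median 0.29). That median was -0.08 under a filter of 5 RPKM, and 1 gene was at least 2-fold higher with a pseudocount of 0.1. The ceramide synthase LOH3 had 1.27 and 2.90 RPKM, and the cytosolic acetyl-CoA carboxylase ACC1, which makes the malonyl-CoA used in elongation, had 36.7 and 26.7 RPKM.

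Of 12 cutin genes, 8 were kept and 7 of these had lower RPKM in ago1-36, as 51.5% of all kept genes did, with a median log2 ratio of -0.37. In each direction 1 of the 8 passed 2-fold, against 19.6% (higher) and 8.38% (lower) of all kept genes, which is too few to set the list apart. CYP86A4, a fatty acid hydroxylase of cutin synthesis, stood at 3.65 RPKM in wild-type and 11.1 in ago1-36 and was 3.05-fold higher (95% counting interval 2.44 to 3.82). GPAT8, an acyltransferase that acts with GPAT4, had 5.82 and 2.40 RPKM and was 2.43-fold lower (95% counting interval 1.79 to 3.33). Rescaled by the median of ratios, GPAT8 was no longer past 2-fold. The suberin list had 2 of 8 genes kept, the transporters ABCG2 (6.08 and 4.07 RPKM) and ABCG6 (2.51 and 1.52 RPKM), both under 2-fold. With 2 genes, this does not set the list apart from the 19.6% and 8.38% of all kept genes.

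The transporters that carry wax and cutin precursors out of the cell had 4 of 6 genes kept, with a median log2 ratio of -0.47. ABCG12 (CER5), a wax exporter, was read at 49.9 RPKM in wild-type and at 29.7 in ago1-36, so it was lower where CER1 was higher. ABCG32, an exporter of cutin precursors, had 13.3 and 7.33 RPKM. ABCG13, a transporter of the flower cuticle, had 1.09 and 3.32 RPKM from 34 and 103 reads, and on the scale with 1 added it was the only kept gene of the list past 2-fold (3.05-fold higher, 95% counting interval 2.05 to 4.63). That was 1 of 4 kept genes higher and 0 lower, against 19.6% and 8.38% of all kept genes. The higher count was 0 under a filter of 5 RPKM, and the lower count was 1 in the log2 column of the authors' deposited table. The median was -0.73 under that filter and also without genes that overlap another listed gene. Over all 8 lists beside the members, 47 genes were kept, of which 16 had higher and 31 lower RPKM in ago1-36. Lower RPKM was thus found for 66.0% of them, against 51.5% of all kept genes. Past 2-fold were 8 higher genes (17.0%, against 19.6% of all kept genes) and 3 lower genes (6.38%, against 8.38%), shares near the background, and the median log2 ratio was -0.38.

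**Figure D4:**
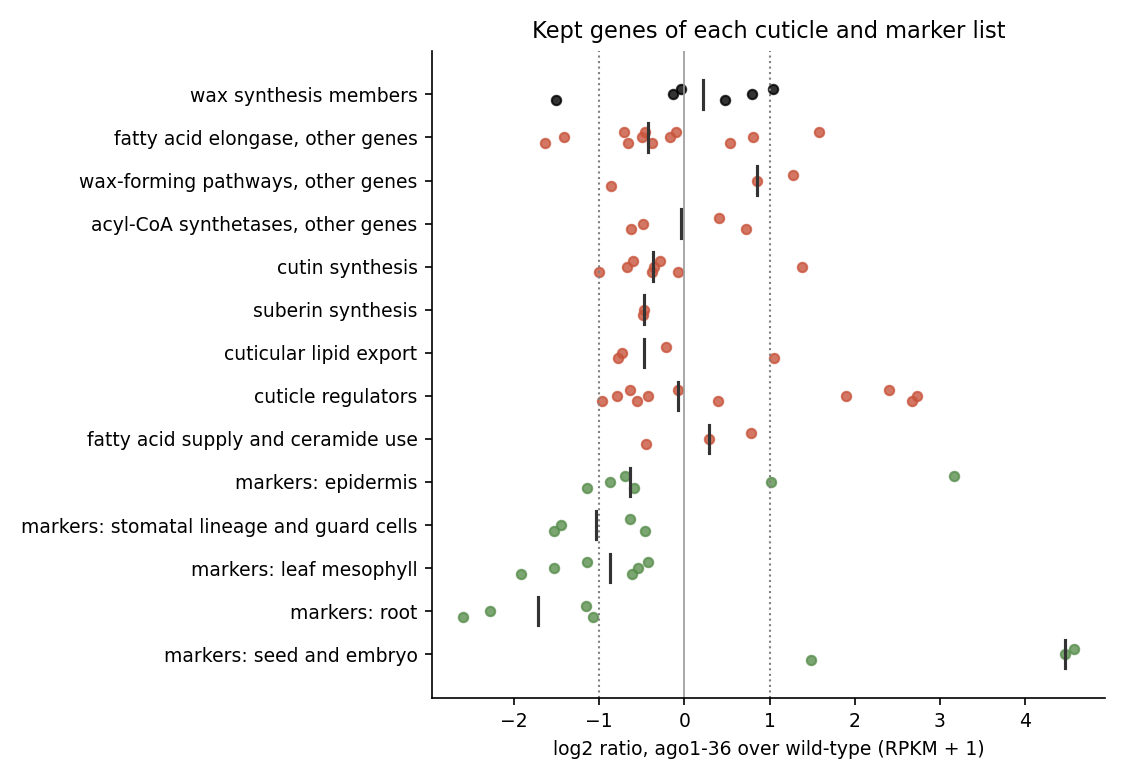
Log2 ratio of ago1-36 over wild-type (RPKM plus 1) for each kept gene of the members (black), the other cuticle lists (red) and the marker lists (green), 1 point per gene, with a bar at each list's median and dotted lines at 2-fold. The members lie on both sides of 0, and 4 regulators lie above 1.

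Among the members and the other cuticle lists, marker lists aside, the regulators of the cuticle held the largest log2 ratios. Of 16 listed, 11 were kept; 4 were at least 2-fold higher (against 19.6% of kept genes) and none was at least 2-fold lower (against 8.38%), with a median log2 ratio of -0.08. Under 5 of the 9 alternatives run, 2 were at least 2-fold lower. MYB96, an activator of wax genes under drought, measured 10.5 RPKM in wild-type against 75.1 RPKM in ago1-36 and was 7.16-fold higher (95% counting interval 6.26 to 8.19). SHN3, an AP2-type factor of the SHINE clade that promotes cuticle formation, had 4 and 97 reads (0.298 and 7.27 RPKM, 24.4-fold, 95% counting interval 9.23 to 91.3). SPL9, a target of miR156 that is known to bind the CER1 promoter, had 2.53 and 17.7 RPKM and was 6.98-fold higher (95% counting interval 5.21 to 9.53). MYB30, an activator of very-long-chain fatty acid synthesis in pathogen defence, had 1.65 and 8.92 RPKM and was 5.39-fold higher (95% counting interval 3.76 to 7.93).

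The other regulators stayed under 2-fold on the scale with 1 added. DEWAX, a repressor of wax genes that include CER1, stood at 5.03 RPKM in wild-type and 2.07 in ago1-36, from 61 and 25 reads. Its plain RPKM ratio was 0.412 (95% counting interval 0.248 to 0.667), and its log2 ratio was -0.97. MYB41 rested on 15 wild-type and 3 ago1-36 reads, a plain ratio of 4.97-fold lower (95% counting interval 1.41 to 26.8). The cutin regulators MYB16 (8.89 and 5.72 RPKM) and MYB106 (9.38 and 5.67 RPKM) had lower values in ago1-36. CER7, an exosome subunit that acts on CER3 expression, had 13.6 and 12.9 RPKM, and CFL1, a negative regulator of cuticle formation, had 35.6 and 47.2 RPKM. MYB106, CER7 and, among the transporters, ABCG2 and ABCG11 overlap other listed genes, so their values are uncertain. The same holds for CYP86A2 and BDG1 of the cutin list, the epidermal marker GL2 and the root markers EXPA7 and CASP1. Whether the levels of these factors and of the wax genes are linked was not tested, and 2 libraries cannot test it.

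**Figure D5:**
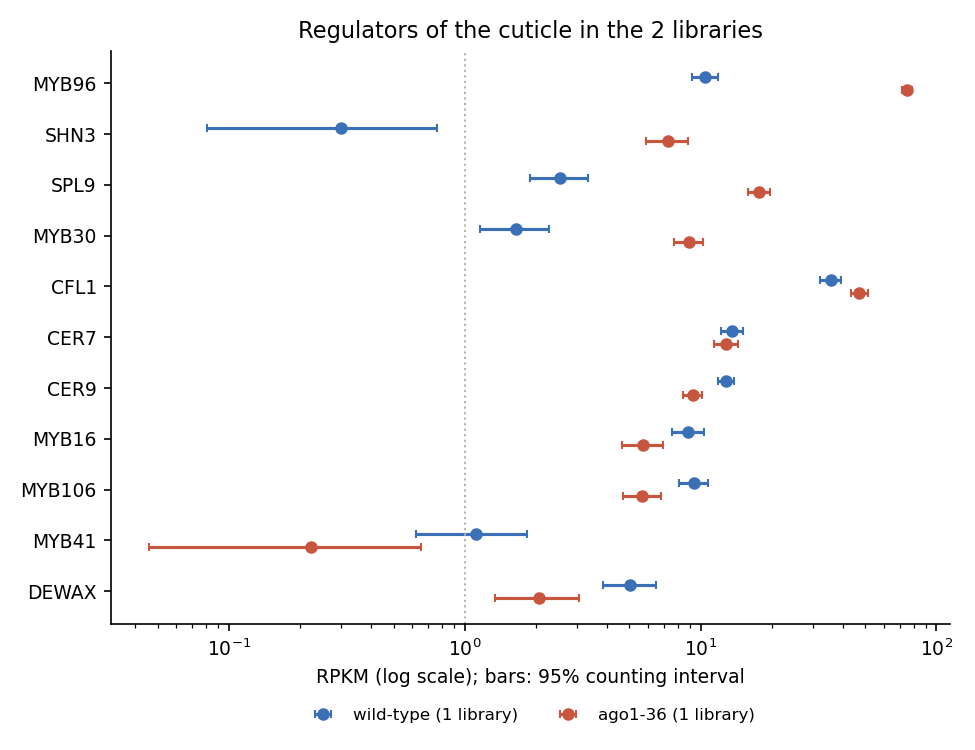
RPKM of the 11 kept cuticle regulators on a log scale in wild-type (blue) and ago1-36 (red), 1 point per library, ordered by log2 ratio, with exact Poisson 95% counting intervals and a dotted line at 1 RPKM. MYB96, SHN3, SPL9 and MYB30 lie far to the right in ago1-36, and DEWAX and MYB41 lie to the left.

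Markers of the cells that whole seedlings hold also differed between the libraries. Of 6 epidermal markers, all had values and none was at 0 in either library. The regulators and surface genes ATML1 (22.4 and 13.4 RPKM), PDF2 (35.2 and 18.8 RPKM), PDF1 (210.0 and 94.3 RPKM) and GL2 (17.7 and 11.4 RPKM) had lower values in ago1-36. The lipid-transfer proteins LTP1 (483 and 978 RPKM) and LTP2 (39.0 and 357 RPKM) had higher ones, so that the summed level of the 6 was 807 RPKM in wild-type against 1473 RPKM in ago1-36. Lower values were thus found for 4 of 6 epidermal markers, against 51.5% of all kept genes, and higher values for 2. A link between these markers and the wax genes was not tested. Stomatal and guard cell markers were lower in 4 of 4 genes with values (summed 79.9 and 47.0 RPKM), among them KAT1 at 19.1 and 5.98 RPKM. Leaf mesophyll markers were lower in 6 of 6 genes (summed 11039 and 6380 RPKM). Both counts stand beside 51.5% of all kept genes with lower RPKM in ago1-36, and the lists are small.

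Root markers were lower in 4 of 4 genes with values (summed 45.6 and 11.8 RPKM), against 51.5% of all kept genes. CER4 and the suberin transporters, which roots also express, had lower values, while FAR5, which serves suberin, had a higher one. A link between these genes and root content was not tested. Seed markers were higher in 3 of 3 genes with values (summed 0.448 and 54.3 RPKM), against 48.5% of all kept genes. In none of these lists was a gene with values at 0. The part of cell composition in the differences of the wax genes was not tested, and in whole seedlings fewer cells of a type and less RNA per cell cannot be told apart.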

How the data were processed

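Libraries were made from total RNA with the SMART approach, per the labels' protocols, and the submitters' processing notes name TopHat2 2.0.11 and the build TAIR10. How reads were counted, with which annotation and whether by strand, is not given in the sources used here. Per the file headers, the authors deposited RPKM for each gene in both libraries, together with their log2 fold change between the genotypes and their GFOLD score. Of 11957 lines that name a gene, 291 repeats were dropped.

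Genes that reached 1 RPKM in either library were kept, with a pseudocount of 1 and a threshold of 2-fold. Reads were recovered from the RPKM ratio and the log2 column, which is log2 of reads plus 1 less an offset of 0.177. Of 3075 genes with 1 to 100 wild-type reads, 99.9% came out whole within 0.1, and larger numbers are estimates. Library totals came from annotated exon lengths, at the most frequent value (152 of 8209 genes). Without molecular identifiers, PCR copies of 1 molecule count as separate reads. The intervals take each read as 1 molecule, so they may be too narrow even for counting error. The authors' tables carry no coordinates, and positions, names and sequences came from TAIR10.1. The steps were also run on simulated data made with the same log2 formula, in which only genes with many reads were altered. That run does not test differences of genes with few reads, such as CER4. Software was Python 3.11.15, numpy 2.4.6, pandas 2.3.3 and scipy 1.17.1.

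The members, lists, motifs and alternatives were chosen with earlier results of these data known. Named by rule were the members, AGO1 and the 2 kept genes of each other cuticle list with the largest absolute log2 ratio. Other list genes were named after their values were seen.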

Additional observations from a re-analysis of the deposited data

How the results depend on the processing

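CER1, KCS1 and CER2 kept a higher value in ago1-36, and KCS6 and CER4 a lower one, under every alternative run that left them a value, while KCR1 ranged from -0.23 to 0.01 on the log2 scale. CER1 ranged from 0.87 to 1.095. The number of members at least 2-fold higher, 1 as reported, was 0 after rescaling that leaves organelle genes and the top 50 genes by abundance out of the library sum, and 0 in the log2 column of the authors' deposited table. The number at least 2-fold lower, 1 as reported, was 0 under a filter of 5 RPKM, which removes CER4 by its construction. The median log2 ratio of the members, 0.22 as reported, was 0.48 under that filter, 0.036 in the authors' deposited table and -0.040 without genes that overlap another listed gene, which removes CER2. CER4 ranged from -3.18 to -1.48, since its value depends on the pseudocount. For the other lists, 187 of 216 recomputed values stayed close to the reported ones. Close meant within 1.5 times a reported count, with counts that stayed at 0 included. For a list median it meant within the median of the single-gene counting limits, which is not the counting error of the median itself. The median of the cuticle regulators turned to 0.16 under a filter of 5 RPKM and to 0.40 without overlapping genes. With a pseudocount of 0.1 or 0.5, 2 regulators rather than 0 were at least 2-fold lower. The same held under both rescalings to a sum of 1000000 and in the log2 column of the authors' deposited table. No paired analysis was possible because each genotype had 1 library. The low read number of CER4 limits its fold.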
